A study of Homo sapiens with 6 samples.

Results

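RAB GTPases are the small GTP-binding proteins that mark the membranes of the secretory and endocytic routes. A RAB is loaded with GTP by an exchange factor, binds effectors that tether, move or fuse vesicles, and is switched off by a GTPase-activating protein. It holds to membranes through lipid groups on cysteines at its C-terminus and is carried through the cytosol by escort proteins and GDP dissociation inhibitors (GDIs). TPD52, the gene lowered in this study, encodes a coiled-coil protein linked to vesicle traffic and exocytosis, and the adrenal cortex is known for making steroids from cholesterol that reaches mitochondria from lipid droplets, endosomes and the plasma membrane.

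The members were all protein-coding genes whose symbol is RAB, a number, and up to one letter and one digit. There were 63 of them among the 34869 genes of the expression table. Of these, 45 had a mean of at least 1 FPKM (read fragments scaled to gene length and library size) over the 6 libraries and were tested, and 18 lay below that filter. All samples were cells of NCI-H295R, a long-established line from a human adrenocortical carcinoma. The shTPD52 group carried a lentiviral short hairpin RNA (shRNA) against TPD52 and the shCtrl group carried a non-targeting one, with 3 libraries in each. Both groups therefore shared the line, the transduction and the medium, and a single TPD52 shRNA group was compared here, with its hairpin not named in the labels. Whether the libraries of a group came from different cultures is not in the labels, and each p-value therefore weighs a difference against a spread that may be purely technical.

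TPD52 itself was at 0.630, 0.635 and 0.655 FPKM in shTPD52 replicates 1, 2 and 3, against 1.42, 1.18 and 1.29 FPKM in shCtrl replicates 1, 2 and 3. The groups did not overlap, and the ratio of means was 0.493. In limma with TPD52 added to the tested genes the log2 fold change was -0.65 and the adjusted p 0.0218, with a range of 0.0107 to 0.118 over the alternatives. The call held in 8 of 17 alternatives and was lost on leaving out any 1 library other than shTPD52 replicate 2. It was also lost with no filter, with a filter of 5 FPKM, and after a length and GC correction with or without that replicate. The estimated depth ran between 29544381 and 38396544 reads in the shTPD52 libraries and between 30582688 and 36885589 reads in the shCtrl libraries. Reads of mitochondrially encoded genes took 19.6% to 24.3% of the shTPD52 libraries and 17.5% to 18.5% of the shCtrl libraries. The 10 adrenocortical markers were all expressed, and 5 of them rose in shTPD52: HSD3B2, MC2R, SULT2A1, FDX1 and CYP21A2. HSD3B2, a steroid dehydrogenase, averaged 21.3 FPKM in shTPD52 and 5.80 FPKM in shCtrl, and MC2R, the receptor of the pituitary hormone ACTH, averaged 3.98 FPKM in shTPD52 and 1.12 FPKM in shCtrl. STAR, the cholesterol carrier of steroid synthesis, averaged 135 FPKM in shTPD52 and 136 FPKM in shCtrl. The part of this shift in the RAB results was not tested. Of the markers of other cell types, PTPRC, PECAM1, COL1A2 and ALB were each under 0.1 FPKM in both groups. A principal component analysis set shTPD52 replicate 2 (0.29 on the first axis) between the other shTPD52 libraries (27.3 and 35.3) and the shCtrl libraries (-24.1 to -16.4). The calls without that library are given after the role lists.

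The 45 tested RAB genes covered a wide range of levels. RAB38 was the highest, with a mean of 113.7 FPKM over the 6 libraries, above RAB1A at 60.9, RAB11B at 54.9 and RAB11A at 53.5 FPKM. RAB38 belongs to the branch of the family that builds lysosome-related organelles such as melanosomes, and it alone made up 12.6%, 13.7% and 14.3% of the summed RAB FPKM in shTPD52, against 17.3%, 15.9% and 16.8% in shCtrl. In all, 9 members had a mean of at least 30 FPKM and 20 a mean of at least 10 FPKM. The summed level of the 63 members was 680.4, 742 and 656 FPKM in shTPD52, against 811, 803 and 795 FPKM in shCtrl. Every shTPD52 library was thus below every shCtrl library in this unscaled sum, with shTPD52 replicate 2 the nearest to shCtrl. The typical level over all tested genes, as a median-ratio size factor, was 0.961, 1.02 and 0.905 in shTPD52, against 1.04, 1.06 and 1.05 in shCtrl. Other genes thus also tended to be lower in shTPD52, and the part of this in the RAB sum was not tested. In bulk RNA, fewer cells of one kind and less RNA per cell cannot be told apart.

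**Figure D1:**
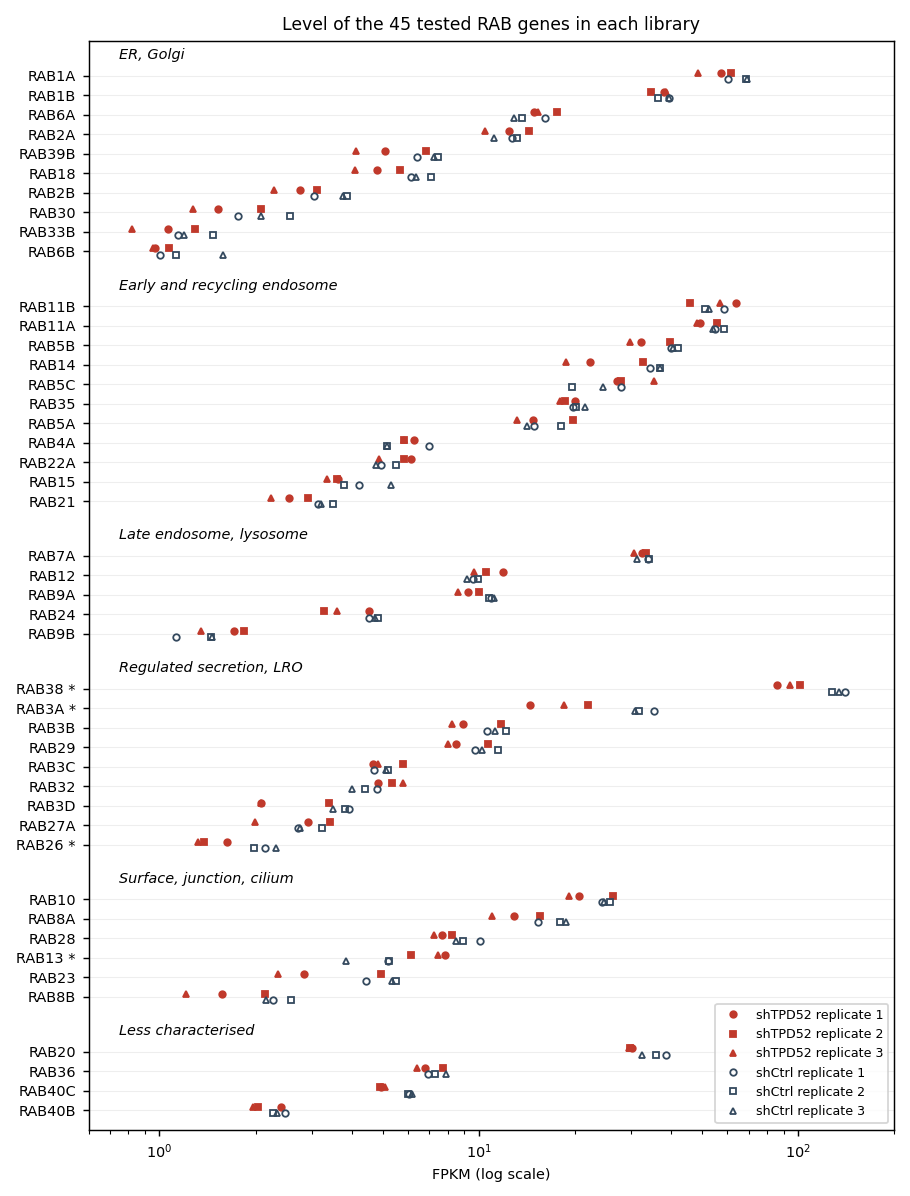
Level of each tested RAB gene in FPKM on a log axis, by role, with filled red symbols for shTPD52 and open dark symbols for shCtrl (1 symbol per library). Asterisks mark the members with an adjusted p under 0.05. RAB38 stands at the top of the range, and in RAB38 and RAB3A the filled and open symbols are clearly apart.

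In the comparison of shTPD52 with shCtrl, 3 of the 45 tested members fell (RAB38, RAB3A and RAB26) and 1 rose (RAB13), in limma at a Benjamini-Hochberg adjusted p under 0.05, with all 12782 tested genes in the adjustment. Over all tested genes 12.7% fell and 5.63% rose, beside RAB shares of 6.67% and 2.22%. Whether the share that fell lies below or above its background depended on the setting. After a correction for gene length and GC content 22.2% of the RAB genes fell, beside 9.75% of all genes, and without shTPD52 replicate 2 it was 51.1%, beside 32.9%. The remaining 41 members did not pass, which does not show that they were equal. The distribution of all 45 leaned downward, as did that of all tested genes. Of the 45, 33 had a log2 fold change below 0 and 12 above it. Over all 12782 tested genes, 8076 were below 0 and 4706 above it. The median was -0.21 for the 45, beside -0.11 over all tested genes. After median-ratio scaling, which moved the median of all genes to 0.00, the RAB median was -0.10. Such scaling divides each library by a single factor and shifts nearly all genes alike, so it cannot test the distance between the medians. That scaling also evened the calls over all genes, to 1083 higher (8.47%) and 1038 lower (8.12%), where the deposited values gave 720 higher and 1621 lower, and it left RAB38 and RAB3A lower and RAB13 higher. The groups did not overlap for 14 members that were lower in shTPD52 and for 2 that were higher, RAB13 and RAB32. Over all genes such separation was seen in 28.3% of genes in the lower direction and in 13.8% in the higher one.

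**Figure D2:**
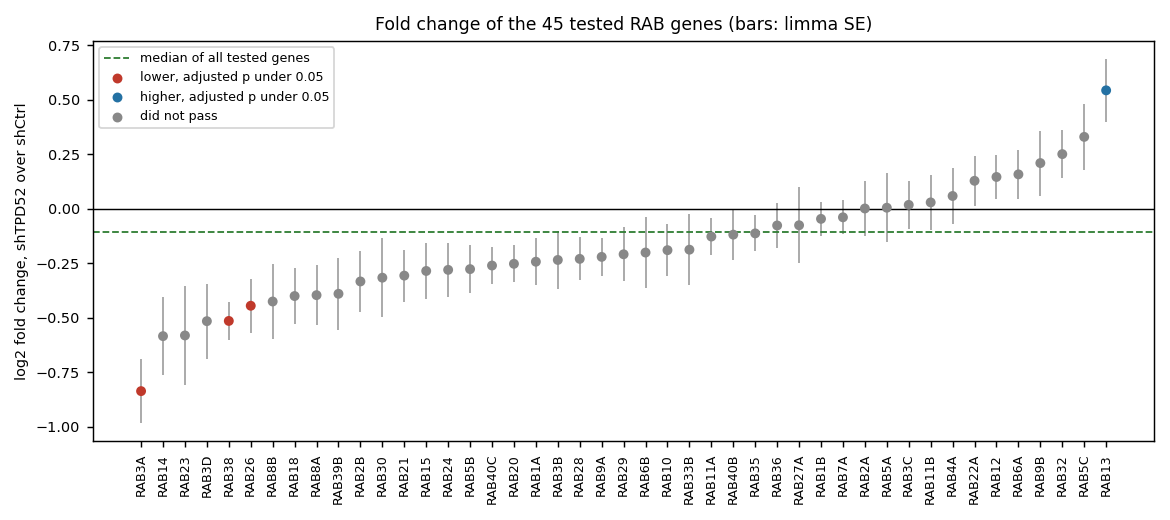
Log2 fold change of shTPD52 over shCtrl, on the log2(FPKM + 0.5) scale, for the 45 tested RAB genes in ascending order, with limma standard errors as bars. Red marks the 3 members that fell, blue the 1 that rose, and grey the 41 that did not pass, while the dashed line is the median of all genes at -0.11. Most points lie below 0, and few stand far from the dashed line.

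All 3 members that fell belong to the RABs of regulated secretion and lysosome-related organelles, a list of 11 with 9 tested. They are 33.3% of the 9, beside 12.7% of all tested genes. The median log2 fold change of these 9 was -0.24, beside -0.11 for all tested genes. The other 5 role lists held none that fell, but this depended on the setting. After the length and GC correction RAB1A, RAB8B, RAB9A, RAB14, RAB18, RAB20 and RAB28 of those lists also fell. Without shTPD52 replicate 2, each of the 5 lists held members that fell. The lists were drawn up with results of these data known, and no test of the difference between lists was made.

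RAB38 (ENSG00000123892, chr11:88113242-88175467, minus strand, GRCh38) was at 85.5, 101 and 94.0 FPKM in shTPD52, against 140.3, 128 and 134 FPKM in shCtrl. The lowest shCtrl library lay well above the highest shTPD52 library, shTPD52 replicate 2. The means were 93.7 ± 7.96 FPKM in shTPD52 and 134 ± 6.35 FPKM in shCtrl (SD, n = 3 each), a ratio of 0.700. The log2 fold change was -0.52 with a standard error of 0.087 and an adjusted p of 0.0131 in limma. These levels rest on an estimated 3702 to 5422 reads per library in shTPD52 and 5716 to 7224 in shCtrl. The call held in 14 of 17 alternatives and was lost without shTPD52 replicate 1 (adjusted p = 0.0596), without shCtrl replicate 1 (0.0609) and without shCtrl replicate 3 (0.0756). An unnamed gene on the opposite strand, ENSG00000255241, overlaps it and was at 1.79 FPKM in shTPD52 and 4.37 FPKM in shCtrl, and the strand setting of the counting is not given in the sources used here.

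RAB3A (ENSG00000105649, chr19:18196784-18204074, minus strand), which acts in the docking and priming of secretory vesicles in neurons and endocrine cells, had the largest fold change of the tested members. It was at 14.4, 22.0 and 18.5 FPKM in shTPD52, against 35.4, 31.8 and 30.9 FPKM in shCtrl. The groups were far apart, with shTPD52 replicate 2 again the highest of its group. The ratio of means was 0.560, with means of 18.3 ± 3.79 FPKM in shTPD52 and 32.7 ± 2.40 FPKM in shCtrl (SD, n = 3 each). The log2 fold change was -0.84 with a standard error of 0.15 and an adjusted p of 0.0144 in limma. RAB3A stayed below the threshold in 12 of 17 alternatives, and lost its call with no filter on low genes (adjusted p = 0.0576) and without shTPD52 replicate 1 (0.0524) or any 1 of the shCtrl libraries (0.0515 to 0.0703). MPV17L2, which overlaps it on the opposite strand, was at 13.7 FPKM in shTPD52 and 13.1 FPKM in shCtrl.

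RAB26 (ENSG00000167964, chr16:2140803-2154165, plus strand), a RAB of secretory granules and synaptic vesicles, was expressed at a low level. It was at 1.63, 1.38 and 1.32 FPKM in shTPD52, against 2.13, 1.98 and 2.31 FPKM in shCtrl, and the groups did not overlap. The log2 fold change was -0.45 with a standard error of 0.12 and an adjusted p of 0.0449 in limma. This call was close to the threshold and held in 6 of 16 alternatives: it was lost under median-ratio scaling (adjusted p = 0.0769), quantile normalization (0.104), no filter (0.116), with the replicate number as a block (0.0550), without shTPD52 replicate 2 after median-ratio scaling (0.0770) and on leaving out any 1 library other than shTPD52 replicate 2 (0.0907 to 0.168).

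The other tested members of this list did not pass. RAB3D, a paralog of RAB3A found on dense secretory granules, was at 2.08, 3.40 and 2.08 FPKM in shTPD52, against 3.93, 3.80 and 3.49 FPKM in shCtrl. The groups were separate, but shTPD52 replicate 2 lay close to shCtrl, and the adjusted p was 0.0704 with a log2 fold change of -0.52. Without shTPD52 replicate 2 the log2 fold change was -0.71 and the adjusted p 0.00212. RAB3D shares bases with TMEM205 on the same strand, which was at 11.5 FPKM in shTPD52 and 8.06 FPKM in shCtrl. RAB32, the closest relative of RAB38, was at 4.83, 5.35 and 5.77 FPKM in shTPD52, against 4.79, 4.39 and 3.997 FPKM in shCtrl, a narrow separation in the opposite direction from RAB38 (log2 fold change 0.25, adjusted p = 0.131). RAB27A, which docks lysosome-related organelles at the plasma membrane, had a log2 fold change of -0.08. RAB3B, RAB3C and RAB29 had log2 fold changes of -0.24, 0.02 and -0.21, and none of the 3 had an adjusted p below 0.2.

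**Figure D3:**
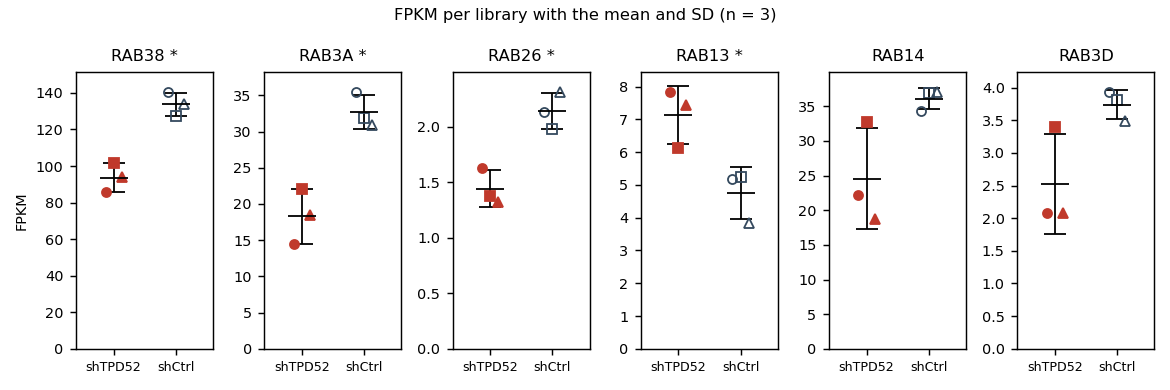
FPKM in each library for the 4 members that passed (asterisks) and for RAB14 and RAB3D, 2 of those nearest to passing, with the group mean and SD as bars and shTPD52 left of shCtrl in each panel (circle, square and triangle: replicates 1, 2 and 3). In RAB14 and RAB3D the square, shTPD52 replicate 2, stands near shCtrl while the other 2 shTPD52 libraries lie lower.

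Within the RAB3 genes and within the pair of RAB32 and RAB38, the share taken by each gene is set out next. The summed RAB3 level was 30.1, 43.0 and 33.6 FPKM in shTPD52, against 54.6, 53.0 and 50.7 FPKM in shCtrl. RAB3A made up 48.0%, 51.3% and 54.9% of it in shTPD52, against 64.8%, 60.1% and 60.9% in shCtrl. RAB3C made up 14.4% ± 0.984 in shTPD52 and 9.51% ± 0.793 in shCtrl (SD, n = 3 each), while its own level averaged 5.09 FPKM in shTPD52 and 5.01 FPKM in shCtrl. RAB32 made up 5.38% ± 0.388 of the sum of RAB32 and RAB38 in shTPD52 and 3.18% ± 0.239 in shCtrl (SD, n = 3 each). RAB3B made up 27.2% ± 2.56 of the RAB3 sum in shTPD52 and 21.5% ± 1.86 in shCtrl (SD, n = 3 each), while the RAB3D share overlapped. The shares of RAB3A, RAB3B, RAB3C and RAB32 did not overlap between the groups. Each had an exact two-sided permutation p of 0.1, the smallest that 3 against 3 libraries allow. Because RAB3A and RAB38 had already passed, these shares partly restate their falls and are not separate support.

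**Figure D4:**
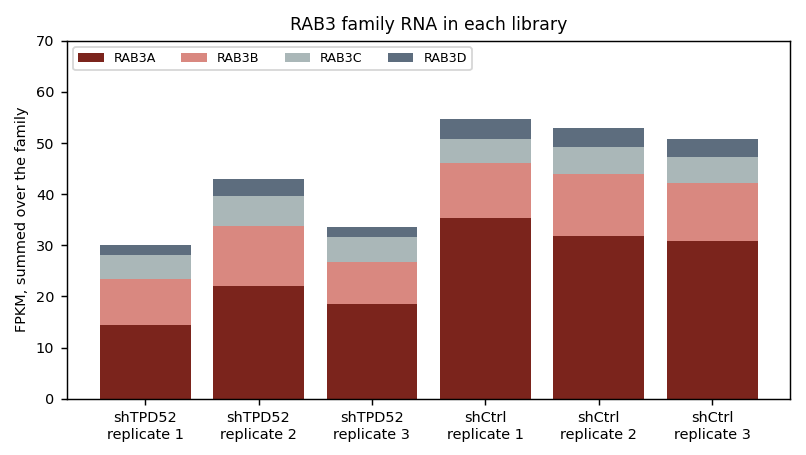
Stacked levels in FPKM of RAB3A, RAB3B, RAB3C and RAB3D in each library, with the 3 shTPD52 libraries left of the 3 shCtrl libraries. The dark bottom segment, RAB3A, carries most of the difference in height, and the sum of shTPD52 replicate 2 (43.0 FPKM) is the highest of the shTPD52 sums.

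The C-terminal codons are shown for the members that passed because they encode the cysteines that carry the lipid anchor. The last 6 codons before the stop codon are given 5′ to 3′ with cysteine codons in capitals. They come from the longest coding transcript of each gene in GENCODE release 29. RAB32 and RAB8A are shown as relatives of RAB38 and RAB13.
RAB38: tctggcTGTgccaaatcc
RAB32: aacaaatcccagTGTTGC
RAB3A: caccaggacTGCgccTGC
RAB26: gcctccTGCTGCcgccct
RAB13: aacaagTGCtccctgggc
RAB8A: ttccgaTGTgttcttctg
RAB38 and RAB13 each have 1 cysteine codon in this window, the fourth codon from the end, while RAB3A, RAB26 and RAB32 have 2. Over the 63 members, 49 have 2 cysteine codons there, 11 have 1 and 3 have none (RAB6C, RAB6D and RAB34). This tally holds for the transcripts used, and other transcripts of a gene, which may end differently, were not examined. A pair of cysteines is the usual substrate of the RAB geranylgeranyl transferase, and a lone cysteine near the end can also be served by the enzymes that act on other small GTPases.

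Among the RABs of surface delivery, junctions and cilia (7 members, 6 tested), RAB13 rose (16.7%) and none fell. Over all tested genes 5.63% rose and 12.7% fell. The median log2 fold change of the list was -0.31. RAB13 (ENSG00000143545, chr1:153981617-153986358, minus strand), which acts in the delivery of junction proteins and surface receptors, was at 7.83, 6.13 and 7.43 FPKM in shTPD52, against 5.20, 5.24 and 3.83 FPKM in shCtrl. All shTPD52 libraries were above all shCtrl libraries, with replicate 2 the lowest of its group. The ratio of means was 1.498, the log2 fold change 0.54 with a standard error of 0.14, and the adjusted p 0.0394 in limma. The call held in 11 of 17 alternatives and was lost with no filter (adjusted p = 0.121) and on leaving out any 1 library other than shTPD52 replicate 2 (0.0789 to 0.137).

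The other 5 tested members of that list had log2 fold changes below 0 and did not pass. RAB10, which brings glucose transporters and other cargo to the surface, was the highest of them by level, at 20.6, 26.2 and 19.1 FPKM in shTPD52, against 24.4, 25.8 and 24.7 FPKM in shCtrl. Here shTPD52 replicate 2 lay above all 3 shCtrl libraries and the other 2 shTPD52 libraries below them. RAB8A, which acts in surface delivery and cilium growth, was at 12.8, 15.5 and 11.0 FPKM in shTPD52, against 15.3, 17.9 and 18.7 FPKM in shCtrl (log2 fold change -0.40, adjusted p = 0.0755). RAB23, an inhibitor of hedgehog signaling, was at 2.84, 4.94 and 2.35 FPKM in shTPD52, against 4.44, 5.51 and 5.34 FPKM in shCtrl (log2 fold change -0.58, adjusted p = 0.103). RAB8B and RAB28 did not overlap between the groups and had log2 fold changes of -0.43 and -0.23.

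Of the members that passed, only RAB3A and RAB13 had an entry in the RefSeq promoter table, so their promoters are shown. RAB38 and RAB26 had none there. Each run is the 150 bases before the RefSeq start on GRCh38.p14, written 5′ to 3′ on the minus strand of the genome, with matches to the GC box (GGGCGG on either strand) in capitals. The RAB3A window is chr19:18204043-18204192 and the RAB13 window is chr1:153986340-153986489.
RAB3A: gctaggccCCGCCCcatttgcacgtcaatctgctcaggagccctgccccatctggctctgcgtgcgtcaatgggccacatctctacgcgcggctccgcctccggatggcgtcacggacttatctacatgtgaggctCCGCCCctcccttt
RAB13: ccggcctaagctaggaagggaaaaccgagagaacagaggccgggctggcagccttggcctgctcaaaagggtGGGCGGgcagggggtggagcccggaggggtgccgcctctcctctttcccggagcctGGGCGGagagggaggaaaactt
Both windows are rich in G and C, at 64.0% in RAB3A and 66.7% in RAB13, and each holds 2 GC boxes. In the RefSeq table, 50 of the 63 members had an entry, with 71 windows of 250 bases. The GC box was found in 71.8% of these windows, beside 42.6% of all 35116 windows. The other motifs searched were scarcer and near their background: CACGTG, the E-box of the MITF and TFE factors, stood in 7.04% of RAB windows and 6.35% of all, and CAAGGTCA, the NR5A1 site, in 1.41% of RAB windows and 1.15% of all. TGACGTCA (CRE) was found in 1.41% of RAB windows and 1.65% of all, TCATGTG (M-box) in 1.41% and 2.52%, ATCAAAG (TCF and LEF) in 2.82% and 2.26%, and CCAAT in 28.2% and 32.01%. All motifs were searched on both strands, none of them contains another, and a match is only a description of the letters.

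Of the 11 tested RABs of early and recycling endosomes (15 listed), 3 had an unadjusted p under 0.05 in limma. Over all tested genes 4929 of 12782 had one, so such a p was common. None of the 11 passed, and their median log2 fold change was -0.11. RAB14, which acts between the Golgi and endosomes, came nearest. It was at 22.3, 32.7 and 18.8 FPKM in shTPD52, against 34.4, 37.0 and 37.0 FPKM in shCtrl. The groups did not overlap, but shTPD52 replicate 2 lay much nearer to shCtrl than to the rest of its group. The log2 fold change was -0.58 and the adjusted p 0.0578, and without shTPD52 replicate 2 they were -0.81 and 0.00140. GSN overlaps RAB14 on the opposite strand and was at 7.37 FPKM in shTPD52 and 9.51 FPKM in shCtrl, and its part in the RAB14 value was not tested. RAB11B, a RAB of the recycling endosome and the highest of the list by level, was at 64.0, 45.9 and 56.9 FPKM in shTPD52, against 58.4, 51.2 and 52.7 FPKM in shCtrl, with the groups mixed.

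The 3 RAB5 genes, which drive the fusion of early endosomes, summed to nearly the same level, with 79.8 ± 6.78 FPKM in shTPD52 and 80.5 ± 1.94 FPKM in shCtrl (SD, n = 3 each). RAB5B made up 43.4%, 45.5% and 37.9% of that sum in shTPD52, against 48.3%, 52.7% and 51.2% in shCtrl, with no overlap (exact two-sided permutation p = 0.1, the smallest possible). RAB5C made up 37.9% ± 6.77 in shTPD52 and 29.7% ± 4.64 in shCtrl (SD, n = 3 each), with overlap and an exact permutation p of 0.2. In limma RAB5B had a log2 fold change of -0.28 (adjusted p = 0.109) and RAB5C of 0.33 (adjusted p = 0.146). RAB21, which acts in integrin traffic, and RAB15 also did not overlap between the groups, with log2 fold changes of -0.31 and -0.29. RAB35, RAB11A, RAB4A, RAB22A and RAB5A had log2 fold changes between -0.13 and 0.13.

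Of the 10 tested RABs of the ER and Golgi (15 listed), 3 had an unadjusted p under 0.05 in limma, beside 4929 of all 12782 tested genes. None of the 10 passed, and their median log2 fold change was -0.22. RAB1A, which carries vesicles between the ER and the Golgi, was at 57.4, 61.7 and 48.4 FPKM in shTPD52, against 60.4, 68.6 and 69.0 FPKM in shCtrl. The groups overlapped through shTPD52 replicate 2 and shCtrl replicate 1 (log2 fold change -0.24, adjusted p = 0.135). RAB18, found on the ER and on lipid droplets, was at 4.78, 5.68 and 4.08 FPKM in shTPD52, against 6.14, 7.08 and 6.34 FPKM in shCtrl. It was the only tested member of this list whose groups did not overlap, with a log2 fold change of -0.40 and an adjusted p of 0.0628, and without shTPD52 replicate 2 the adjusted p was 0.00745. RAB39B, RAB2B and RAB30 had log2 fold changes of -0.39, -0.33 and -0.32. RAB1B, RAB33B and RAB6B had smaller ones, of -0.05, -0.19 and -0.20, and RAB2A, at a mean of 12.4 FPKM in shTPD52 and 12.3 FPKM in shCtrl, stood level. RAB6A, the main RAB of Golgi retrograde transport, had one of 0.16, and its reads may be shared with the near-identical copies RAB6C and RAB6D, so its value is uncertain.

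None of the 5 tested RABs of late endosomes, lysosomes and autophagy (7 listed) passed, and their median log2 fold change was -0.04. In limma 1 of the 5 had an unadjusted p under 0.05, beside 4929 of all 12782 tested genes. RAB7A, which directs late endosomes to lysosomes, was at 32.4, 33.4 and 30.6 FPKM in shTPD52, against 33.9, 34.1 and 31.2 FPKM in shCtrl. The groups overlapped, and the log2 fold change of -0.04 was small beside its standard error of 0.078. RAB9A, which returns receptors from late endosomes to the Golgi, was at 9.27, 10.0 and 8.62 FPKM in shTPD52, against 10.9, 10.7 and 11.1 FPKM in shCtrl. Its groups did not overlap, and the adjusted p was 0.104. RAB12, RAB24 and RAB9B had log2 fold changes of 0.15, -0.28 and 0.21.

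The tested ones among the less characterised RABs (8 members, 4 tested) all had log2 fold changes below 0, and none passed. In limma 2 of the 4 had an unadjusted p under 0.05, beside 4929 of all 12782 tested genes. RAB20, which has been placed on endosomes and maturing phagosomes, was at 30.1, 29.7 and 29.5 FPKM in shTPD52, against 38.6, 35.9 and 32.5 FPKM in shCtrl. The shTPD52 libraries were tightly grouped below all shCtrl libraries, with a log2 fold change of -0.25 and an adjusted p of 0.0700. RAB40C, which joins a ubiquitin ligase complex, was at 4.95, 4.92 and 5.09 FPKM in shTPD52, against 6.03, 6.005 and 6.19 FPKM in shCtrl. Both groups were narrow and separate, with SDs of 0.088 FPKM in shTPD52 and 0.1001 FPKM in shCtrl. The log2 fold change was -0.26 and the adjusted p 0.0628, and after median-ratio scaling they were -0.15 and 0.242. RAB36 and RAB40B had log2 fold changes of -0.08 and -0.12.

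The 18 members below the filter had means between 0.0142 FPKM (RAB6C) and 0.695 FPKM (RAB4B), and 11 of them were under 0.1 FPKM. For a gene of 2 kb, 3 reads correspond to between 0.039 and 0.051 FPKM in these libraries, so most of these levels rest on few reads. Those named here were picked after their values were seen. RAB27B, a relative of RAB27A in secretory cells, was at 0.0568, 0.00766 and 0 FPKM in shTPD52, against 0.0163, 0.0320 and 0.00758 FPKM in shCtrl. RAB25, an epithelial relative of RAB11A, was at 0.0802, 0.0325 and 0.123 FPKM in shTPD52, against 0, 0 and 0.0321 FPKM in shCtrl. RAB43, with an estimated 36 to 58 reads per library in shTPD52 and 86 to 105 in shCtrl, was at 0.339, 0.319 and 0.188 FPKM in shTPD52, against 0.503, 0.563 and 0.570 FPKM in shCtrl. Its groups did not overlap, but it has a pseudogene copy, RAB43P1, and its value is uncertain.

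How far the counts depend on shTPD52 replicate 2 could be read from the members directly. In 27 of the 45 tested members, shTPD52 replicates 1 and 3 both lay below every shCtrl library. Replicate 2 also did so in 14 of these 27 (51.9%), beside 61.4% of the 5886 such genes over the whole table. In the other 13, RAB1A, RAB2B, RAB39B, RAB8A, RAB10, RAB11A and RAB23 among them, replicate 2 lay within or above the shCtrl range. Replicate 2 was the highest of the 3 shTPD52 libraries in 30 of the 45 members (66.7%), beside 52.8% of all tested genes. Without it 23 members fell and 1 rose in limma, where the background was 32.9% of genes lower and 12.6% higher. The 23 included all 3 that fell with all libraries. Among the 20 gained, the log2 fold changes without replicate 2 were -0.81 in RAB14, -0.71 in RAB3D, -0.85 in RAB23, -0.59 in RAB8B, -0.52 in RAB8A and -0.32 in RAB10, with adjusted p-values in limma between 0.00140 and 0.0119. Of the ER and Golgi list RAB39B (-0.57), RAB18 (-0.51), RAB30 (-0.47), RAB2B (-0.42) and RAB1A (-0.32) were gained, with adjusted p-values between 0.00714 and 0.0474. The others gained were RAB5B (-0.40), RAB21 (-0.39), RAB3B (-0.38), RAB29 (-0.33), RAB28 (-0.28), RAB9A (-0.27), RAB20 (-0.25), RAB40C (-0.25) and RAB11A (-0.19), with adjusted p-values between 0.00416 and 0.0469. Without it and after median-ratio scaling, 10 members fell and 4 rose (RAB11B, RAB12, RAB13 and RAB32), with backgrounds of 22.0% and 21.9%. Why this library lies where it does was not tested.

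The tested RAB genes were somewhat shorter and lower in GC than the rest. Their median exon length was 4022 bases and their median GC content 44.8%, beside 4425 bases and 48.6% for all tested genes. Removing each library's trend on length and GC content gave 10 members that fell and 1 that rose, with backgrounds of 9.75% lower and 10.1% higher. These were RAB38, RAB3A and RAB26 together with RAB1A, RAB8B, RAB9A, RAB14, RAB18, RAB20 and RAB28. The RAB median under this correction was -0.10, beside 0.01 for all tested genes.

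The genes that load, carry and switch RABs were counted in the same way. Of 127 genes in 4 lists, 103 were tested, 22 fell (21.4%) and 1 rose (0.971%), beside 12.7% and 5.63% of all tested genes. Their median log2 fold change was -0.32, beside -0.21 for the RABs and -0.11 for all tested genes. Without shTPD52 replicate 2, 67 fell (65.0%) and 3 rose (2.91%), beside 32.9% and 12.6% of all tested genes. Leaving out shCtrl replicate 3 left none in either direction, where only 0.305% of all tested genes fell and 0.376% rose. After the correction for length and GC content 11 fell (10.7%) and 7 rose, beside backgrounds of 9.75% lower and 10.1% higher and beside the 22.2% of RAB genes that then fell. No test between the regulators and the RABs was made.

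Among the 8 genes of prenylation, escort and GDI function, all tested, 2 fell (25.0%) and 1 rose (12.5%). Over all tested genes 12.7% fell and 5.63% rose. The transferase that attaches lipids to RABs is built from an alpha and a beta chain, and the 2 moved in opposite directions. RABGGTB, the beta subunit, rose: it was at 9.43, 10.6 and 10.4 FPKM in shTPD52, against 7.57, 7.92 and 7.49 FPKM in shCtrl (log2 fold change 0.38, adjusted p = 0.0256 in limma). RABGGTA, the alpha subunit, fell: it was at 3.94, 4.10 and 4.54 FPKM in shTPD52, against 6.17, 5.09 and 6.28 FPKM in shCtrl (log2 fold change -0.43, adjusted p = 0.0370). Neither chain's groups overlapped, but neither call was firm. RABGGTB held in 11 of 17 alternatives, with adjusted p up to 0.117, and was lost with no filter and on leaving out any 1 library other than shTPD52 replicate 2. RABGGTA held in 8 of 17, with adjusted p up to 0.149, and was lost in the same settings and also under median-ratio scaling, with or without shTPD52 replicate 2, and under quantile normalization.

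Of the 38 exchange factors, 30 were tested, 8 fell (26.7%) and none rose, beside 12.7% and 5.63% of all tested genes. DENND4B, an exchange factor for RAB10, had the smallest p of the list, at 9.11, 11.4 and 8.60 FPKM in shTPD52, against 18.1, 17.4 and 19.0 FPKM in shCtrl. Its log2 fold change was -0.88 and its adjusted p 0.00797, and the call held in 16 of 17 alternatives, the exception being without shCtrl replicate 3 (adjusted p = 0.0568). RAB3IL1, an exchange factor of the RABIN family, was at 2.13, 1.93 and 2.13 FPKM in shTPD52, against 4.04, 3.66 and 3.82 FPKM in shCtrl, with the groups far apart (log2 fold change -0.76, adjusted p = 0.00877). SBF1, a myotubularin-related protein with a DENN domain, had a log2 fold change of -0.56 (adjusted p = 0.0175), and of -0.19 (adjusted p = 0.131) after the length and GC correction. The other 5 that fell were MADD, HPS4, ANKRD27, SH3BP5 and RGP1, named after their values were seen. None of these 5 calls held without shCtrl replicate 3, where only 0.305% of all tested genes fell. MADD, the exchange factor of the RAB3 proteins and RAB27A, averaged 11.9 FPKM in shTPD52 and 16.5 FPKM in shCtrl (log2 fold change -0.47, adjusted p = 0.0330). HPS4, a subunit of the exchange factor of RAB32 and RAB38, averaged 3.52 FPKM in shTPD52 and 4.74 FPKM in shCtrl (log2 fold change -0.39, adjusted p = 0.0482). Its partner subunit HPS1 had a log2 fold change of -0.09 and did not pass. ANKRD27, an exchange factor of RAB21 that also binds RAB32 and RAB38, averaged 5.71 FPKM in shTPD52 and 8.28 FPKM in shCtrl (log2 fold change -0.51, adjusted p = 0.0411). SH3BP5, an exchange factor of RAB11, averaged 19.7 FPKM in shTPD52 and 33.1 FPKM in shCtrl (log2 fold change -0.77, adjusted p = 0.0284). RGP1, which with RIC1 activates RAB6A, averaged 8.74 FPKM in shTPD52 and 12.8 FPKM in shCtrl (log2 fold change -0.54, adjusted p = 0.0315).

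Of the 34 GTPase-activating proteins, 29 were tested, 5 fell (17.2%) and none rose, beside 12.7% and 5.63% of all tested genes. TBC1D9B was at 13.7, 15.9 and 12.6 FPKM in shTPD52, against 22.5, 21.6 and 22.3 FPKM in shCtrl, with a log2 fold change of -0.64 and an adjusted p of 0.0111. SGSM2, which acts on RAB32 and RAB38 in melanocytes, was at 3.94, 4.07 and 3.73 FPKM in shTPD52, against 6.28, 5.38 and 6.77 FPKM in shCtrl. Its groups were far apart, with a log2 fold change of -0.59 and an adjusted p of 0.0165, and after the length and GC correction these were -0.22 and 0.0904. TBC1D2, which acts on RAB7A, averaged 2.24 FPKM in shTPD52 and 3.38 FPKM in shCtrl (log2 fold change -0.50, adjusted p = 0.0182).

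Of the 47 effectors, 36 were tested, 7 fell (19.4%) and none rose, beside 12.7% and 5.63% of all tested genes. MICALL2, an effector of RAB13 at junctions, was at 4.22, 3.97 and 4.30 FPKM in shTPD52, against 6.54, 6.22 and 6.90 FPKM in shCtrl. Its log2 fold change was -0.60 (adjusted p = 0.0111), opposite in sign to that of RAB13, and -0.23 (adjusted p = 0.0699) after the length and GC correction. GOLGA2, a Golgi tether that binds RAB1, averaged 22.3 FPKM in shTPD52 and 31.3 FPKM in shCtrl (log2 fold change -0.48, adjusted p = 0.0219). MICAL1, an actin-oxidising enzyme that binds RAB8 and its relatives, averaged 1.21 FPKM in shTPD52 and 1.98 FPKM in shCtrl (log2 fold change -0.54, adjusted p = 0.0272). Both lost their calls after the length and GC correction, with adjusted p-values of 0.0543 for GOLGA2 and 0.0917 for MICAL1. RIMS1 and RPH3A, effectors of RAB3A known from neurons, were under 0.02 FPKM in every library, and RIMS2 averaged 2.64 FPKM in shTPD52 and 2.06 FPKM in shCtrl without passing (adjusted p = 0.221).

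**Figure D5:**
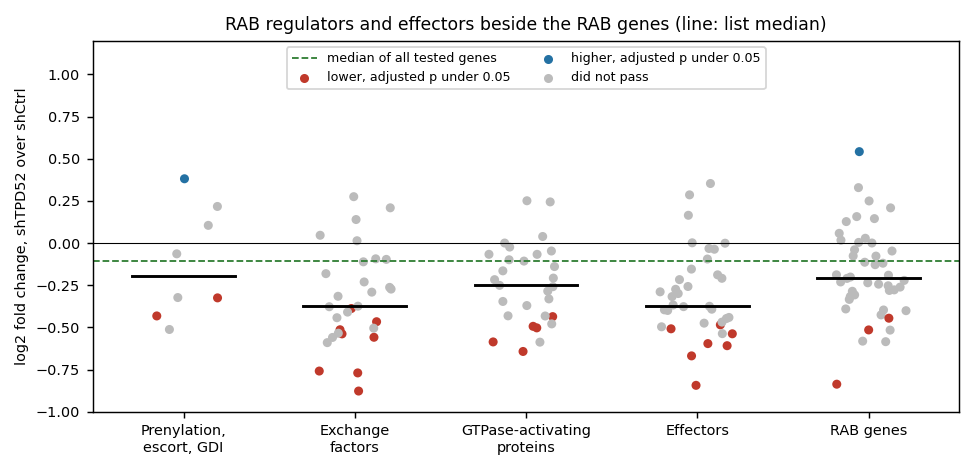
Log2 fold change of shTPD52 over shCtrl on the log2(FPKM + 0.5) scale for each tested gene of the 4 regulator lists and for the RAB genes, with black lines at the list medians and a dashed line at the median of all tested genes (-0.11). Red points fell, blue points rose and grey points did not pass. The list medians all lie below the dashed line, and RABGGTB and RAB13 are the only points in blue.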

How the data were processed

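RNA of 6 NCI-H295R libraries, 3 shTPD52 and 3 shCtrl by their titles, was sequenced in paired ends. The labels' protocols give TRIzol extraction and a VAHTS Universal V6 library kit. The deposited values are FPKM computed by the authors, 1 column per library. HISAT2 2.2.1, featureCounts 2.0.3 and GRCh38 are named, with no roles, in the submitters' processing notes. No source used here gives the annotation release, the filters or the strand setting, so reads of overlapping genes on opposite strands cannot be told apart.

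Symbols were matched by identifier for 34803 of 34869 genes (99.8%), and coordinates and exon lengths are those of GENCODE release 29. Depth was estimated from the spacing of low FPKM values. With those lengths, 46.4% to 47.4% of low values came out as whole reads within 0.02 reads, so read numbers are estimates and no count test was run. A floor of 3 reads covers counting error only.

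The test covered genes averaging 1 FPKM or more and was made with limma 3.58.1 (R 4.3.3) on log2(FPKM + 0.5), two-sided, with an intensity trend and Benjamini-Hochberg adjustment over 12782 genes. Such fold changes understate those of low genes. TPD52, under the filter, was fitted by adding it. The code was tested on simulated data. Single shares were compared by exact permutation tests.

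The members, lists and tests were chosen with earlier results of these data known. The text names the RABs that passed, the highest by mean level of each of 6 role lists, the 5 nearest to passing, up to 3 passing genes with the smallest p in each of 4 regulator lists, and TPD52. A gene that this rule names is not reported here. Other names serve to account for every member, or are said to be chosen after their values were seen. Alternative settings numbered 15 (pseudocount, filter, scaling, length and GC correction, trend, replicate block, leaving out each library), with 2 more added after the data were seen. Sequences come from RefSeq (GRCh38.p14) for promoters and from GENCODE release 29 for coding ends.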

Additional observations from a re-analysis of the deposited data

How the results depend on the processing

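Over all tested genes, 2341 passed as deposited, 531 without a filter on low genes, 5606 without shTPD52 replicate 2 after median-ratio scaling and 5019 without it after the length and GC correction. On leaving out 1 library the count ran from 87 to 5825. The 1 RAB gene that rose and the 3 that fell became 0 and 1 without a filter, 4 and 10 without shTPD52 replicate 2 after median-ratio scaling, and 2 and 17 without it after the length and GC correction. With all libraries, the length and GC correction gave 10 that fell. Leaving out 1 library gave 0 to 1 RAB genes that rose and 0 to 23 that fell. For the RAB regulator and effector genes (1 higher, 22 lower), 0 rose and 5 fell without a filter, and 7 rose and 11 fell after the length and GC correction. For these genes, 5 rose under median-ratio scaling, 5 under quantile normalization and 2 without the intensity trend. Without shTPD52 replicate 2, 10 rose and 48 fell after median-ratio scaling, and 14 rose and 34 fell after the length and GC correction. Leaving out 1 library gave 0 to 3 that rose and 0 to 67 that fell. Leaving out a library also leaves fewer samples, and the cause of the other shifts was not tested.

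With the replicate number as a block, 6 RAB genes fell (RAB26 was lost, RAB14, RAB18, RAB23 and RAB3D were gained) and 1 rose. In that setting 34 regulator and effector genes fell, with 3064 calls among all tested genes. The shares that fell were 13.3% of RAB genes and 33.0% of regulator and effector genes, beside 16.9% of all tested genes. Deviations of same-numbered samples correlated at 0.0451, 0.248 and 0.0223, and shTPD52 replicate 3 correlated best with shCtrl replicate 1 (0.283), so the numbers were not taken to pair the samples.

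In 15 members, none of which passed, the sign of the log2 fold change turned under some alternative, 38 values in all. Median-ratio scaling put RAB1B at 0.0749, RAB27A at 0.0265, RAB35 at 0.0069, RAB36 at 0.038 and RAB7A at 0.0818. Quantile normalization put RAB11B at -0.0276, RAB27A at 0.0637, RAB36 at 0.0617 and RAB40B at 0.0139. The length and GC correction put RAB27A at 0.0236, RAB36 at 0.0329, RAB3B at 0.0808 and RAB40B at 0.0854. Without shTPD52 replicate 2, median-ratio scaling put RAB1B at 0.1681, RAB35 at 0.0595, RAB36 at 0.0098, RAB40B at 0.046 and RAB7A at 0.0979, and the length and GC correction put RAB11A at 0.0098, RAB21 at 0.0153, RAB3B at 0.067, RAB40B at 0.1589, RAB5A at -0.0744 and RAB6B at 0.0027. On leaving out 1 library, the log2 fold change ran from -0.0785 to 0.1586 in RAB11B, from -0.0848 to 0.001 in RAB1B, from -0.2189 to 0.1086 in RAB27A, from -0.1051 to 0.1127 in RAB2A, from -0.0712 to 0.0735 in RAB3C, from -0.0087 to 0.1897 in RAB4A and from -0.1566 to 0.1253 in RAB5A. Read numbers are only estimated here, so depth was not used to weigh single values.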

Other observations

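The make-up of other sets of RAB paralogs, chosen after their values were seen, is given as shares of the summed FPKM with exact two-sided permutation tests over samples. RAB2B made up 18.2%, 17.9% and 17.9% of the sum of RAB2A and RAB2B in shTPD52, against 19.4%, 22.7% and 25.1% in shCtrl. RAB9B made up 15.6%, 15.5% and 13.6% of the sum of RAB9A and RAB9B in shTPD52, against 9.39%, 11.9% and 11.6% in shCtrl. Neither share overlapped between the groups, and each had a p of 0.1, the smallest possible with 3 against 3 libraries. For RAB1A and RAB1B, RAB8A and RAB8B, and RAB11A and RAB11B, the shares overlapped, with p between 0.3 and 0.5. The p-values were not adjusted over the 8 sets compared.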
